A study of Mus musculus with 7 samples.

Results

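The widest 1% of the 76705 H3K4me1-marked regions of resting splenic CD8+ T cells (CD8-TC), 652 regions over protein-coding genes and 115 outside them, were examined for the genes they cover, for the place of transcription start sites (TSSs) in and around them, and for the Runx3-bound regions they hold. They were chosen by width alone, as end minus start, and hold 7.46% of the length that all regions cover, 8.16 of 109 Mb. The cells came from WT mice of the ICR strain, with 18 mice given in the labels of each library, and were enriched on anti-CD8 magnetic beads. Per the labels, 7 ChIP-seq libraries fell into 3 groups: 3 made with a home-made polyclonal serum against Runx3 (2 repeats), 2 with a monoclonal antibody to H3K4me1 and 2 with non-immune rabbit serum (NIS). The labels give no age, treatment or manipulated allele, and all groups hold the same wild-type cells. Repeats of each antibody were joined before peaks were called against the joined NIS libraries, so that a single list exists for each antibody, and neither the spread between repeats nor the depth of a region is known. Intervals are 95% intervals that cover counting error over regions. Neighbouring regions are not independent, and such intervals are then too narrow. The NIS libraries were the control of both calls, and the part of this shared control in the overlap was not tested.

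H3K4me1, monomethylation of lysine 4 of histone H3, marks enhancers, both active and poised, and the flanks of active promoters, where the start site itself carries trimethylation instead. Long unbroken stretches of the mark are often found over genes that a cell type depends on, where many enhancers lie close together. Runx3 is a RUNX family transcription factor that binds DNA as a heterodimer with Cbfb, recognises variants of the motif TGTGGT, silences Cd4 and takes part in the differentiation of cytotoxic T cells.

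The cell label was checked with markers. All 11 CD8-TC marker genes (among them Cd8a, Cd3e, Lck and Bcl11b) overlapped an H3K4me1-marked region, with a median of 51.1% of the gene span covered (range 31.5 to 72.4%). All 8 B cell marker genes also overlapped one, with a median of 26.6% covered (range 18.4 to 53.8%). Marked regions also overlapped 6 of 7 myeloid (median cover 19.9%, range 0 to 98.0%), 5 of 5 dendritic (14.7%, range 2.58 to 27.9%) and 2 of 4 NK marker genes (14.9%, range 0 to 30.5%), and the part of other cells in this was not tested. Of the defining markers of lineages outside lymphoid and myeloid cells, 1 of 5 erythroid, 2 of 5 neural and 1 of 4 liver genes overlapped a region, each set with a median cover of 0. Among the widest regions were those over Tcf7 and Ets1 of the CD8-TC set, over Pax5 of the B cell set, and over no marker of the myeloid, dendritic, NK, erythroid, neural or liver sets.

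Sequence is shown first for the members richest in Runx3, as examples of the bound sequence; most members with a Runx3 midpoint inside held 1 (271 members) or 2 (58 members). In the mm9 genome, a member of 17566 bp in the gene Ppp3cc, a catalytic subunit of the phosphatase calcineurin (chr14:70671187-70688752), and a member of 13671 bp between Il10rb and Ifnar1, genes of interleukin-10 and interferon receptor chains (chr16:91441066-91454736), each held 4 Runx3-bound regions, more than any other. The widest of the members with 3 lay in Fli1, which encodes an ETS family factor (chr9:32299753-32323383, 23631 bp). Each line gives the 200 bases around the midpoint of a Runx3-bound region on the + strand. Capitals mark RUNX matches, which are TGNGGN with T or C at each N, on either strand. The Ppp3cc and Fli1 windows are intronic, and those of the Ifnar1 side lie outside annotated protein-coding genes.
Ppp3cc window 1 (chr14:70672272-70672471): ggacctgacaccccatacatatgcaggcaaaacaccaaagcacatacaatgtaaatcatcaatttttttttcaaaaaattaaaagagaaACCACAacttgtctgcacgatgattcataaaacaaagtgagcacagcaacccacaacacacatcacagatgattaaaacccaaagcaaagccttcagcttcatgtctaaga
Ppp3cc window 2 (chr14:70673517-70673716): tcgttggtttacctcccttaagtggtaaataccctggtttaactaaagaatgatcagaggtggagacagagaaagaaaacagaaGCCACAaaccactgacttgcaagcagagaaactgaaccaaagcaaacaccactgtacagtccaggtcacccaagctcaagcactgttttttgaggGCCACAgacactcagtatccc
Ppp3cc window 3 (chr14:70678672-70678871): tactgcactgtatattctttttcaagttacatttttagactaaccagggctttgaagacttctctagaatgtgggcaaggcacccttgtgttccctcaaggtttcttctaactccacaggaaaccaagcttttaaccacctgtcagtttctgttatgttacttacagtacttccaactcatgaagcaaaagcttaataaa
Ppp3cc window 4 (chr14:70683439-70683638): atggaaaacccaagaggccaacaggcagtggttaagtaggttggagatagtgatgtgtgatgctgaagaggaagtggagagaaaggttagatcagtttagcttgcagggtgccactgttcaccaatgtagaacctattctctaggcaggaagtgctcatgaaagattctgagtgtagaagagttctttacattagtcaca
Ifnar1-side window 1 (chr16:91442670-91442869): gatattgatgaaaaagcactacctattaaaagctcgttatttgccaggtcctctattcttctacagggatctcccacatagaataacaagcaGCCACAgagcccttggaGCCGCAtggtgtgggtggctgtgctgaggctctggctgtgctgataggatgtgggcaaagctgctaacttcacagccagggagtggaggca
Ifnar1-side window 2 (chr16:91445902-91446101): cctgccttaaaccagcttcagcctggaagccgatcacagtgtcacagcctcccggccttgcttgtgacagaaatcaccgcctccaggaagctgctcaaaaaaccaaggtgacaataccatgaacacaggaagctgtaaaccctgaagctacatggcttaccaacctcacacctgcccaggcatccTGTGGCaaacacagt
Ifnar1-side window 3 (chr16:91448398-91448597): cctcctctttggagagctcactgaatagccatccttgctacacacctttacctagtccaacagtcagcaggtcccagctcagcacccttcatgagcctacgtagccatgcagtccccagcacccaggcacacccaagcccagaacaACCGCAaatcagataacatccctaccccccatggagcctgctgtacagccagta
Ifnar1-side window 4 (chr16:91452191-91452390): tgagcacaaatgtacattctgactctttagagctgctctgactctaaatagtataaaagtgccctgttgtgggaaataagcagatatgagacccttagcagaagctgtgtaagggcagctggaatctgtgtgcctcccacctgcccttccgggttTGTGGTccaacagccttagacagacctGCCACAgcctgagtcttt
Fli1 window 1 (chr9:32307572-32307771): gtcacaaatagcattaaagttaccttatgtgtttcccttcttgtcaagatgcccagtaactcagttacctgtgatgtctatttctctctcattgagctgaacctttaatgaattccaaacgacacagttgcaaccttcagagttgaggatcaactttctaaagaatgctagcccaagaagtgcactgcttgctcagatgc
Fli1 window 2 (chr9:32315080-32315279): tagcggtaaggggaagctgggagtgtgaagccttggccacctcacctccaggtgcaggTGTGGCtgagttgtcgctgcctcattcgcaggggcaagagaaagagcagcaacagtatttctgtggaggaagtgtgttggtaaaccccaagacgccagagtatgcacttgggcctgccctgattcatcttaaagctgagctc
Fli1 window 3 (chr9:32317382-32317581): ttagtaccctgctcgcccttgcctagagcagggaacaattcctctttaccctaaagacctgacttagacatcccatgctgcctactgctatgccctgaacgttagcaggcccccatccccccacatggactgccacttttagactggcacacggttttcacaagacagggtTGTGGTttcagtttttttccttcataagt

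Of these 11 windows, 8 held at least 1 match, windows 3 and 4 of Ppp3cc and window 1 of Fli1 held none, and all 11 whole Runx3-bound regions held between 1 and 7 matches. Over all 422 Runx3-bound regions with their midpoint in a member, a match lay in the central 200 bp of 316 (74.9%, interval 70.5 to 78.8%), against 30.6% of 38078 windows of the same length in the members clear of Runx3 and 32.4% of windows at the midpoints of all H3K4me1-marked regions.

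The widest members with a protein-coding TSS inside lay in Cyth1, Tpst2 and Capzb. The 100 bases upstream of these start sites are shown in the direction of transcription, with CpG dinucleotides in capitals, because start sites inside the widest regions differed from others in CpG content. All 3 stretches lie within the annotated span of the same gene, downstream of its outermost start.
Cyth1 (chr11:118074057-118074156, - strand): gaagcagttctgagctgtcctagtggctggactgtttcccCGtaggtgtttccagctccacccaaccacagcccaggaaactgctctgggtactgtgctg
Tpst2 (chr5:112717682-112717781, + strand): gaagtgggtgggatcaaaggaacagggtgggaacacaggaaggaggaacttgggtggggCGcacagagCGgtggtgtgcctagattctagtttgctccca
Capzb (chr4:138749811-138749910, + strand): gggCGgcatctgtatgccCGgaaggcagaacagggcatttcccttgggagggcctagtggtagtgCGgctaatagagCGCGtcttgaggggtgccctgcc

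These stretches hold 1, 2 and 5 CpG. The median over the 163 distinct protein-coding TSSs inside the widest regions was 1 CpG (interval 1 to 2), against 5 (interval 5 to 5) for 8514 TSSs in the other H3K4me1-marked regions and 4 (interval 4 to 5) for 37263 TSSs outside the mark. At least 5 CpG stood upstream of 21 of the 163 TSSs (12.9%, interval 8.58 to 18.9%), and upstream of 53.3% and 49.5% of the TSSs in the other 2 classes. Start sites within the widest regions were thus mostly CpG-poor.

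Widths ranged from 7340 to 51809 bp with a median of 9300 bp (interval 9097 to 9505 bp), where the median over all H3K4me1-marked regions was 979 bp. The middle of the distribution was narrow, with quartiles of 8104 and 11512 bp, and a long tail reached beyond it. At least 10 kb were reached by 301 members, at least 15 kb by 85 and at least 20 kb by 29. These values chose the members and are a description. The threshold cut through a continuous distribution. The last 5 members inside it were 7373 bp wide in Apbb1ip, 7370 bp near Furin, 7359 bp in Sorl1, 7345 bp in Kcnj1 and 7340 bp in Fam83f. Just outside lay regions of 7338 bp in Gng2, 7334 bp in Pou2af1, 7319 bp in Abtb2, 7318 bp near Bcl9l and 7315 bp in D19Wsu162e. On both sides of the threshold, regions with and without Runx3 were found, 3 of 5 inside and 2 of 5 outside.

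**Figure D1:**
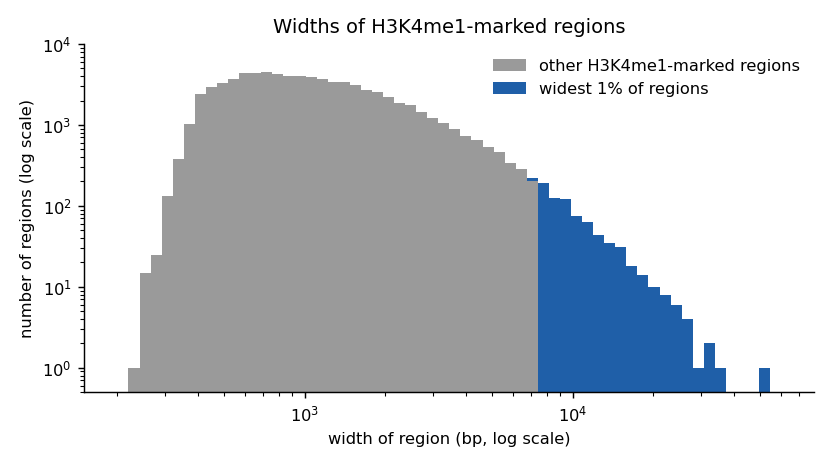
Number of H3K4me1-marked regions by width, both axes on a log scale, with the widest 1% stacked in blue on the others in grey. The blue part starts at 7340 bp, and no gap separates it from the other regions; the last bar holds the region of 51809 bp.

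Chromosome 11 held the most members, 77 or 1.31% of its H3K4me1-marked regions, and chromosome 12 the smallest share of an autosome (22 members, 0.677%). Chromosome X held 7 members, 0.497% of its regions, over Sh3kbp1, Msn, Kdm6a, Elf4, Mid1 and Sept6 and 1 outside protein-coding genes. Members per Mb ranged from 0.181 to 0.632 on the autosomes and were 0.0420 on X.

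The widest region of all ran for 51809 bp through Cyth1, which encodes cytohesin 1, an exchange factor of ARF GTPases and partner of integrin LFA-1 (chr11:118052964-118104772). It lay wholly in the gene, had a protein-coding TSS inside and held 2 Runx3-bound regions. The next in order was 37263 bp wide and started 139 bp downstream of a TSS of Dyrk1a, a protein kinase that phosphorylates NFAT factors (chr16:94792653-94829915, 1 Runx3-bound region). The third, of 32415 bp, lay in Ptprc, the gene of the phosphatase CD45 (chr1:140036652-140069066), 2810 bp downstream of the TSS, and held 2. The 3 have in common that they cover introns, with at most 0.847% of their bases in exons.

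Of the 20 widest, 4 lay in genes of the ETS family, transcription factors that act beside RUNX proteins in lymphocytes. The factor Ets1 held a pair of members of 27110 bp (chr9:32506097-32533206, 2 Runx3-bound regions) and 26319 bp (chr9:32533309-32559627, none) that were 102 bp apart and covered 43.9% of the gene. The neighbouring gene Fli1 held the member of 23631 bp described above, and Elf1 held 1 of 23451 bp (chr14:79916624-79940074, 2 Runx3-bound regions). A further member of 9292 bp lay in Fli1, and 1 of 11315 bp with 1 Runx3-bound region lay 17117 bp upstream of Ets1, so that the neighbouring genes Ets1 and Fli1 and the sequence between them held 5 members.

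The rest of the 20 widest lay over genes of several kinds. Regions of 31451 bp in Myh9 (non-muscle myosin heavy chain, no Runx3-bound region), 30179 bp in Ptpn1 (a tyrosine phosphatase, 1), 27090 bp in Stk24 (a STE20-type kinase, 1) and 26500 bp in Tpst2 (a tyrosylprotein sulfotransferase, 2) were followed by those of 24265 bp in Itpkb (inositol trisphosphate kinase, 2) and 23658 bp in Capzb (an actin capping protein, 1). The adhesion receptor gene Cd2 was covered over 88.3% of its 12041 bp by a member of 22512 bp that started 1352 bp downstream of its TSS and ran past its 3' end, with 1 Runx3-bound region. RNA regulators were found in Eif2c2, which encodes Argonaute 2 (23351 bp, none), and in Mbnl1, a splicing regulator (22298 bp, 1). Bcl11a, a zinc finger factor of B cell and erythroid development, held a member of 24663 bp without Runx3. The list ended with Ccdc88c, a regulator of Wnt signalling (23013 bp, 1), Vps37b, a subunit of the ESCRT-I sorting complex (21605 bp, none), and the member of rank 17, which overlapped no protein-coding gene.

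**Figure D2:**
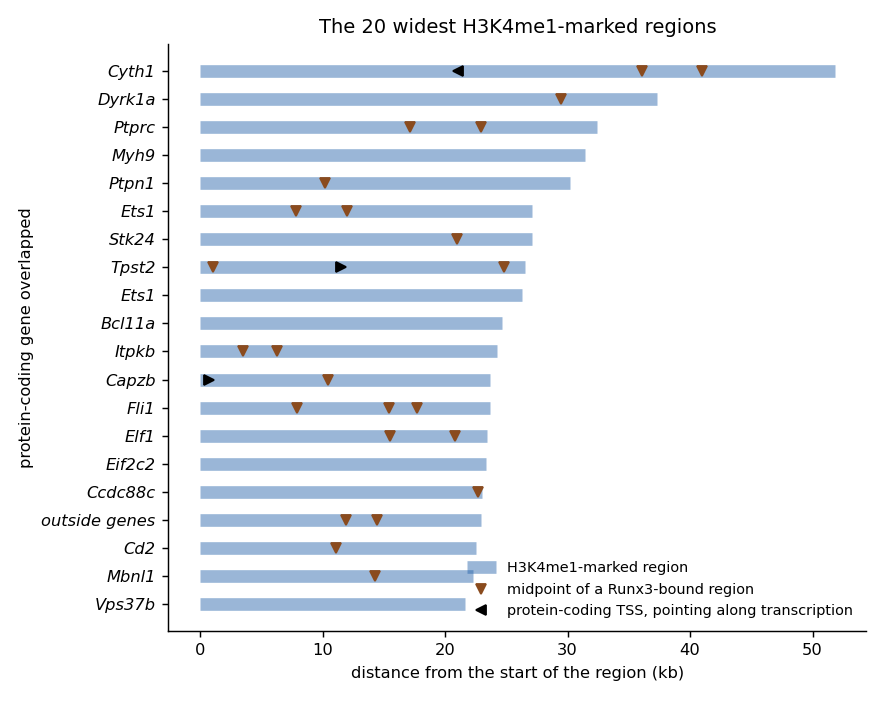
The 20 widest H3K4me1-marked regions, drawn to scale from their end of lower coordinate (x axis, kb), each labelled with the protein-coding gene it overlaps. Brown triangles are midpoints of Runx3-bound regions and black arrowheads the most upstream protein-coding TSS inside; Cyth1, at 51809 bp, is the widest, and 5 of the 20 have no Runx3-bound region.

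A protein-coding TSS lay inside 102 members (13.3%, interval 11.1 to 15.9%), where the background over all H3K4me1-marked regions was 7.63%. With transcripts of every type the count was 198 (25.8%, interval 22.8 to 29.0%) against a background of 11.0%, and with neighbours within 1000 bp joined before the widest were taken it was 52.5%. Since a wide region meets more start sites by its length alone, the same was counted per length. Members held 22.1 TSSs of protein-coding transcripts per Mb (counted once per transcript), fewer than each narrower class of regions, which rose stepwise to 143.5 per Mb in the 38353 narrowest. The larger share and the lower density thus went together.

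Most members lay on the downstream side of the nearest TSS, whether or not inside that gene. The nearest protein-coding TSS had the region on its downstream side in 508 members (66.2%, interval 62.8 to 69.5%) and on its upstream side in 157 (20.5%, interval 17.8 to 23.5%), against 55.4% and 37.0% of the other H3K4me1-marked regions. An edge stood 500 to 1500 bp downstream of the TSS in 112 members (14.6%, interval 12.3 to 17.3%) and the same distance upstream in 7 (0.913%, interval 0.443 to 1.87%). Of the other regions, 4.50% and 2.16% did so. Within 1500 bp downstream, 31 members began in the first 500 bp, 70 between 500 and 1000 bp and 42 between 1000 and 1500 bp. The other regions had most edges in the first 500 bp on either side, 8.20% of them downstream and 7.17% upstream. Among the 20 widest, an edge stood at such a distance in Ptpn1 (629 bp), Stk24 (1230 bp), Elf1 (1131 bp), Ccdc88c (859 bp), Cd2 (1352 bp), Mbnl1 (875 bp) and Vps37b (977 bp), but at 139 bp in Dyrk1a, 2810 bp in Ptprc and 41545 bp in Bcl11a. Over all members without a protein-coding TSS inside, the median distance was 10408 bp (interval 8993 to 12555 bp).

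**Figure D3:**
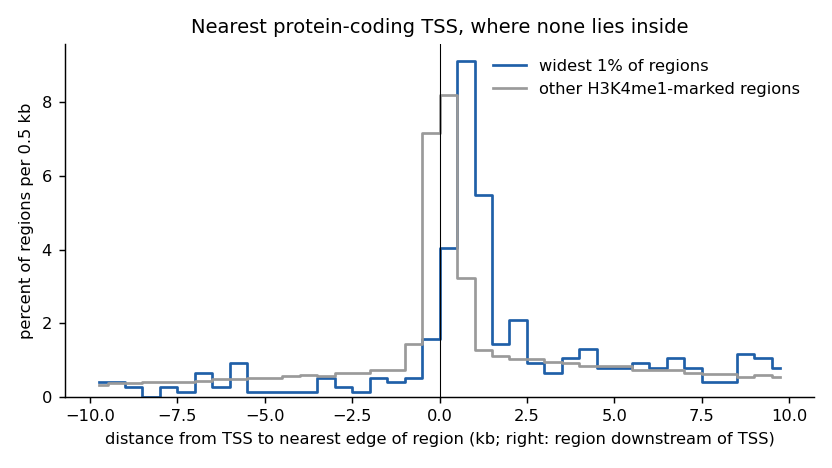
Distance from the nearest protein-coding TSS to the nearest edge of the region (x axis, kb, bins of 0.5 kb, positive where the region lies downstream) for the widest 1% of regions (blue) and the other H3K4me1-marked regions (grey), in percent of all regions of the class; regions with a TSS inside are not drawn. The blue line peaks at 9.13% between 500 and 1000 bp downstream, and the grey line at 8.20% in the 500 bp downstream.

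Where the TSS of exactly 1 protein-coding gene lay inside, in 98 members, a median of 55.5% of the region lay downstream of it (interval 46.0 to 66.5%, interquartile range 25.7 to 84.4%). In 19 the TSS stood within the outer 10% at the upstream end of the region, in 17 within the outer 10% at the downstream end, and in 62 in between. Its place thus varied widely. In Cyth1, 30716 bp lay upstream and 21093 bp downstream of the start site of a shorter transcript, in Tpst2 11496 and 15004 bp. In Capzb (711 bp upstream, 22947 bp downstream) and in Ikzf1, the gene of the lymphoid factor Ikaros (1320 and 19911 bp), nearly the whole region lay downstream of the start site.

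Protein-coding genes were overlapped by 652 members (85.0%, interval 82.3 to 87.4%), against a background of 65.1%, and 586 (76.4%) lay wholly inside genes. By bases, 78.9% of the members' length was intron, 3.56% exon and 17.5% outside protein-coding genes, where the other H3K4me1-marked regions had 58.0%, 6.62% and 35.4%. The midpoint of a member stood at a median of 33.3% of the way along its gene (interval 29.4 to 36.4%), against 29.1% (interval 28.6 to 29.5%) for the other regions. Members in the foremost 20% of the gene were fewer (30.8% against 39.9% of the other regions), and in the next 20% more (29.8% against 20.4%).

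The members overlapped 539 of 22350 protein-coding genes (2.41%), or 3.86% of the 13947 with any H3K4me1-marked region, and 101 genes had at least 2 (0.452%). These genes were long, with a median of 63.1 kb (interval 57.8 to 70.2 kb), against 15.4 kb over all protein-coding genes and 23.4 kb over those with any H3K4me1-marked region. A member overlapped 0.361% of genes under 10 kb, 1.72% of those from 10 to 30 kb, 4.73% from 30 to 100 kb and 6.96% of 100 kb or more. Gene length and overlap with a wide region therefore moved together, and the median gene length is given with each group below that overlapped a member. A median of 18.1% of an overlapped gene was covered by members. At least 50% of the span was covered in 70 genes and at least 90% in 10.

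Ankrd11, which encodes a chromatin regulator, had 6 members that together covered 43.0% of its 158677 bp. A read-through gene model, Gm20388, spans 4.43 Mb and overlapped 11 members, none of them alone. Mbnl1 had 5 members over 48.6% of the gene, Jak1 (a kinase of cytokine receptors) 5 over 56.1%, and Foxp1 (a forkhead factor of T cell quiescence) 5 over 12.7%, while Foxo1, a forkhead factor that keeps Il7r and Klf2 expressed in resting T cells, had 4 over 65.6%. Eif4e3, which encodes a cap-binding protein, also had 5 members. Runx3-bound regions in these members numbered 5 in Jak1, 4 in Eif4e3, 2 in Foxo1 and 1 each in Mbnl1 and Foxp1. The model of Eif4e3 spans 409314 bp and runs into Foxp1, and its 4 Runx3-bound regions all had a TSS of Foxp1 as the nearest. Klf13 (a Krüppel-like factor, 79.3% covered), Stk10 (a lymphocyte kinase, 52.3%, with 4 Runx3-bound regions), Ski (a repressor of TGF-beta signalling, 54.7%) and Bach2 (a repressor of effector genes, 10.3%) also had 4 members each. Long genes such as Foxp1 and Bach2 thus had several members over a small part of their span, while shorter ones such as Klf13 were mostly covered.

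Of the 29 matched genes of T cell receptor (TCR) and proximal signalling, 15 overlapped a member (51.7%, interval 34.4 to 68.6%; median gene length 44.5 kb), beside 2.41% of all protein-coding genes and 4.73% of those of 30 to 100 kb. The components ran from the receptor to its regulators. Cd247, the TCR zeta chain, had a member of 8462 bp without Runx3, and the constant gene of the TCR alpha chain, Trac, was also overlapped. The Src family kinase Fyn had 1 of 8672 bp with 1 Runx3-bound region. The adaptor gene Lcp2 (SLP-76) had 2 members over 37.4% of the gene and 1 Runx3-bound region. Vav1, a guanine nucleotide exchange factor, had 1 of 13575 bp over 27.1% of the gene, without Runx3. A further member lay in Prkcq, which encodes a protein kinase C that links the receptor to NF-kB. Ptprc, whose product CD45 activates Src family kinases by removing a phosphate, had 2 members and 3 Runx3-bound regions. The negative regulators Cblb, a ubiquitin ligase, and Ubash3b, a phosphatase, had 2 members each and no Runx3-bound region in them. Of the 19 members over genes of this list, 9 overlapped a Runx3-bound region, where the share over all members was 45.8%.

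Of the 31 matched factors of T cell identity and quiescence, 13 overlapped a member (41.9%, interval 26.4 to 59.2%; median gene length 87.9 kb), beside 2.41% of all protein-coding genes and 4.73% of those of 30 to 100 kb. Of the 30 members over these 13 factors, 14 overlapped Runx3, beside 45.8% of all members. Besides Ets1, Elf1, Fli1, Foxo1, Foxp1 and Bach2, these were Tcf7, the gene of TCF-1 (10303 bp, 33.4% of the gene, 1 Runx3-bound region), Klf3 (12923 bp, 48.3%, 1), the genome organiser Satb1 (9223 bp, none), Notch1 (2 members over 35.4%, none), Ikzf1 (3 over 61.1%, 2) and Ikzf3 (3 over 26.4%, 1). Runx1, which encodes a RUNX factor that precedes Runx3 in T cell development, had a member of 10640 bp with 2 Runx3-bound regions. Runx3 itself was not overlapped, but a pair of members lay 36136 bp (13035 bp wide) and 13368 bp (7738 bp wide) upstream of its nearest TSS, both without a Runx3-bound region.

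Effector and activation factors overlapped a member in 6 of 33 genes (18.2%, interval 8.61 to 34.4%; median gene length 20.3 kb), which were Irf2, Irf4, Irf8, Stat5b, Nfatc1 and Nfatc3. The background was 2.41% of all protein-coding genes and 1.72% of those of 10 to 30 kb. The median lengths of this list, of cytokine receptors and of cytokine signalling regulators fall in that length class. Irf8, a factor also used by B and myeloid cells, had 2 members over 81.0% of the gene without Runx3, and Irf4 had 1 over 48.3% without Runx3. Of the 9 members over effector and activation factors, 4 held Runx3. Cytokine receptors were overlapped in 5 of 24 (20.8%, interval 9.25 to 40.5%; median 29.4 kb). These were Il4ra (11526 bp, 42.4% of the gene), Il21r, Il10ra, Il12rb1 and Tgfbr2 (2 members over 26.6%), and 0 of their 6 members held Runx3. Cytokine signalling regulators were overlapped in 4 of 22 (18.2%; median 25.4 kb), Jak1, Smad3, Smad7 and Ski, and 9 of their 12 members held Runx3. Over all members the share was 45.8%, and the differences of these small counts from it were not tested. Smad7, an inhibitor of TGF-beta signalling, was covered over 64.4% by a member of 18289 bp with 1 Runx3-bound region. Outside genes, members nearest to Ifnar1, Il7r and Tgfbr2 held 4, 1 and 1 Runx3-bound regions, where 57.4% of all members outside genes overlapped Runx3.

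Homing and adhesion genes overlapped a member in 6 of 20 (30.0%, interval 14.6 to 51.9%; median gene length 17.3 kb). Ccr9, a gut homing chemokine receptor gene, had a member of 11114 bp with 3 Runx3-bound regions. Ccr7, the chemokine receptor of lymph node entry, was covered over 47.4% by a member of 7661 bp without Runx3, and a further member of 13003 bp with 1 lay 5322 bp upstream. Itgb2, Itgb7 and Cd47 were also overlapped. The Gimap cluster of small GTPases of lymphocyte survival was overlapped in 4 of 8 short genes (50%, interval 21.5 to 78.5%; median 7.08 kb) by 3 members, 2 of them with Runx3. Genes of mRNA decay and other RNA regulators were overlapped in 4 of 14 (28.6%; median 23.5 kb), Zc3h12d, Eif2c2, Btg2 and Pdcd4. NF-kB pathway genes were overlapped in 3 of 22 (13.6%; median 23.9 kb), Tnip1, Traf1 and Map3k14, and survival genes in 2 of 17 (11.8%; median 9.20 kb), Bcl2 and Mcl1. Beside the lists of this paragraph stand 2.41% of all protein-coding genes, 1.72% of those of 10 to 30 kb and 0.361% of those under 10 kb. By median length, the Gimap and survival lists belong to the shortest class and the others to that of 10 to 30 kb.

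None of 24 cytotoxic effector and cytokine genes, such as the perforin and granzyme genes, had a member (interval 0 to 13.8%), although 14 had some H3K4me1-marked region. These genes are short, with a median of 5.14 kb, and the background for genes under 10 kb was 0.361%. None of 60 cytosolic ribosomal protein genes had a member (upper limit 6.02%; median 3.57 kb), while all 60 had some H3K4me1-marked region. None of 13 MHC class I presentation genes had a member either (upper limit 22.8%; median 5.77 kb), and all 13 had some marked region. Costimulatory and inhibitory receptors, with a median of 26.3 kb, were overlapped in 1 of 23, Cd28 (4.35%, interval 0.772 to 21.0%), where the background for genes of 10 to 30 kb was 1.72%. Of 19 B cell genes (median 16.0 kb), all with some H3K4me1-marked region, 1 had a member, Pax5, over which it ran for 15390 bp with 1 Runx3-bound region. Further genes that B cells use lay outside that list and were picked out after their values were seen. Members covered 81.0% of Irf8, 74.7% of the chemokine receptor gene Cxcr5, 47.8% of Ccr6, 33.4% of Bcl11a, 27.3% of Sykb and 19.7% of Pou2f2, and a smaller share of Dapp1 (15.4%), Lyn (12.6%) and Pik3ap1 (7.10%), with no Runx3-bound region in any of these members. The purity of the isolated cells is stated in the labels as above 95%, and the part of other cells in these wide marks was not tested. No myeloid, dendritic, NK, erythroid, neural, liver or Hox gene of the lists was overlapped, with upper limits from 10.7% for 32 Hox genes to 32.4% for 8 dendritic genes.

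**Figure D4:**
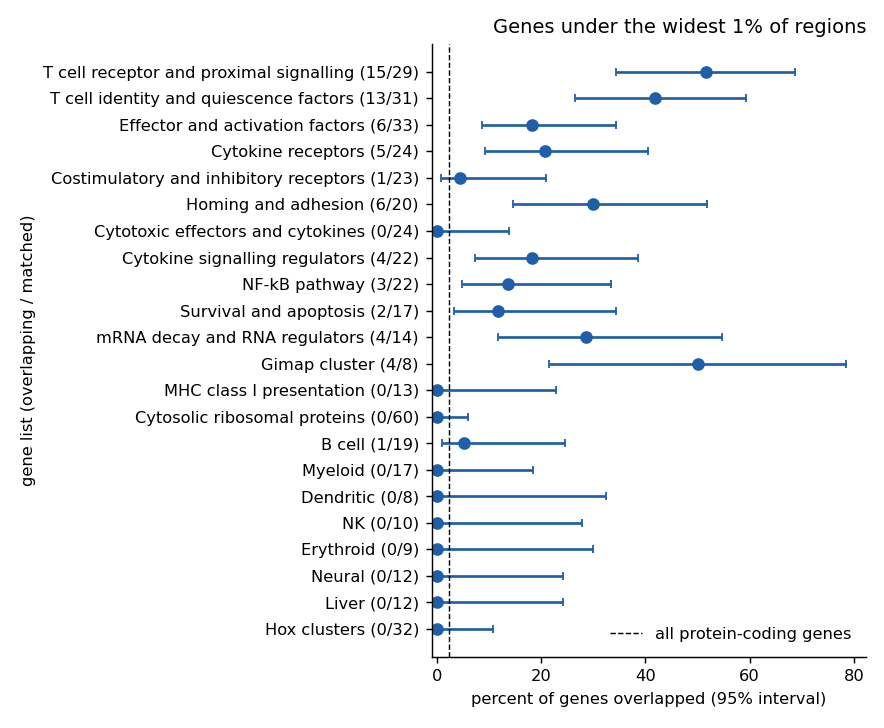
Percent of the matched protein-coding genes of each list that overlap any of the widest 1% of H3K4me1-marked regions (points) with Wilson 95% intervals (bars) and, in parentheses, genes overlapped and genes matched. The dashed line is the value over all protein-coding genes, 2.41%; TCR signalling (51.7%), the Gimap cluster (50%) and identity factors (41.9%) have the highest values, and 10 lists are at 0. The lists were chosen with earlier results of these data known. Their median gene lengths ran from 3.57 kb (ribosomal proteins) to 87.9 kb (identity factors), which the line does not take into account.

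Of the 115 members outside protein-coding genes, the 5 widest were 22969 bp at chr14:122451241-122474209 (nearest protein-coding TSS that of Timm8a2, 2 Runx3-bound regions), 18973 bp at chr10:22010257-22029229 (H60b, a ligand of NKG2D, 1), 18670 bp at chr3:115381323-115399992, 15418 bp at chr17:34426979-34442396, and 15108 bp at chr5:106067605-106082712 (Lrrc8d, 1). The third of these lay 15575 bp downstream of S1pr1, the receptor that lets T cells leave lymphoid organs, and held 2. The next began 432 bp upstream of H2-Eb1, a class II MHC gene, and held none. Of the homing and other listed genes, chosen after their values were seen, members were also closest to Cxcr4 (9457 bp wide, 9682 bp upstream, no Runx3-bound region), Il7r (7647 bp, 40497 bp upstream, 1), Cd47 (8261 bp, 50858 bp upstream, none) and Myc (11116 bp, 175300 bp downstream, 2). The antiproliferative gene Btg1 was the nearest to 3 of them, at 102740, 240565 and 281510 bp, and Zfp36l2, which promotes mRNA decay, to 2. These are nearest start sites, and no contact with the genes was measured.

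Runx3 was more common in the widest regions than in others. At least 1 Runx3-bound region overlapped 351 members (45.8%, interval 42.3 to 49.3%), against 5.49% of all H3K4me1-marked regions, and none overlapped the other 416. A single Runx3-bound region was found in 278, 2 in 62, 3 in 9 and 4 in 2, so that 73 had at least 2, for which the background was 0.242%. They overlapped 436 of the 4934 Runx3-bound regions (8.84%, interval 8.08 to 9.66%), or 11.2% of the 3889 that overlapped any H3K4me1-marked region. Both shares are compared with regions that were on average far shorter.

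Per length, the widest regions held 422 Runx3 midpoints in 8.16 Mb, or 51.7 per Mb (interval 46.9 to 56.9), and the other H3K4me1-marked regions 28.1 per Mb (interval 27.0 to 29.1), a ratio of 1.84 (exact conditional interval 1.66 to 2.04). When each Runx3-bound region was counted wherever it overlapped, the ratio was 1.36 (interval 1.231 to 1.503). The rate was higher in members than in other regions on 19 of 20 chromosomes, from 38.3 per Mb on chromosome 13 to 82.9 on chromosome 19. Chromosome X was the exception, where no midpoint lay in its 7 members and 1 member, in Sept6, was overlapped.

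The widest regions did not stand apart from the regions next in width. The 3068 regions from 3880 to 7338 bp held 50.3 midpoints per Mb (interval 46.9 to 54.0), a ratio of 1.03 for the widest against them (interval 0.910 to 1.16). The rate then fell to 42.4 per Mb for regions of 2766 to 3879 bp, 33.7 for 1646 to 2765 bp, 17.9 for 979 to 1646 bp and 11.4 (interval 10.1 to 12.8) for the narrowest, which makes the widest 4.53 times as dense as these (interval 3.89 to 5.28). This ratio depended on the counting: of the 644 Runx3-bound regions that overlapped the narrowest class, 284 had their midpoint in it. With every Runx3-bound region counted in each class that it overlaps, the members held 53.4 per Mb, the next class 54.1 and the classes below it 47.5, 40.7, 31.1 and 25.9, so that the widest were 2.06 times as dense as the narrowest (interval 1.82 to 2.33). Against the next class that ratio was 0.987 (interval 0.877 to 1.11). The fall with width was thus seen under both counts and was smaller by overlap. Within the members, the share with Runx3 rose with width, from 37.0% of the 192 narrowest (interval 30.5 to 44.0%) to 57.3% of the 192 widest (interval 50.2 to 64.1%), whereas the rates were 54.1 per Mb (interval 42.9 to 67.4) and 47.9 per Mb (interval 40.5 to 56.3). Above about 4 kb, the number of Runx3-bound regions thus followed the length.

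**Figure D5:**
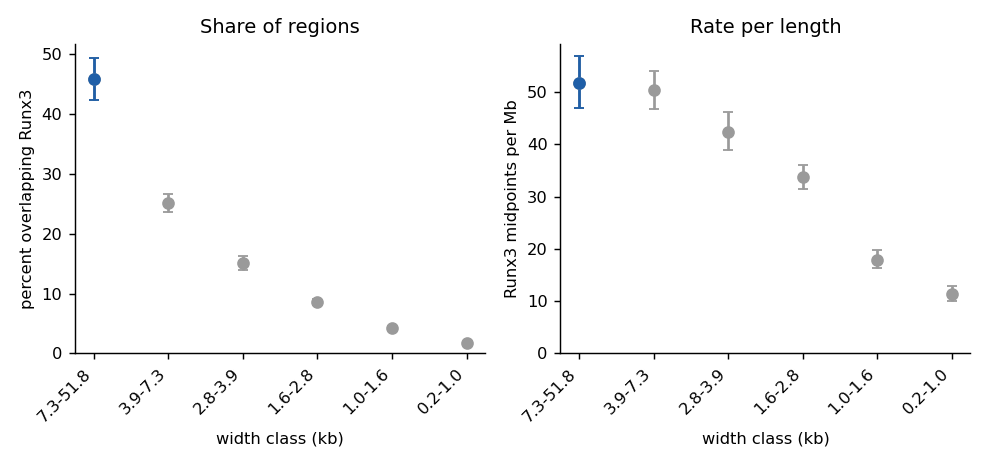
Left, percent of H3K4me1-marked regions that overlap a Runx3-bound region; right, midpoints of Runx3-bound regions per Mb of marked sequence, in 6 classes of width (x axis, kb) with 95% intervals (Wilson and exact Poisson), the widest 1% in blue. The share rises at each step to 45.8%, while the rate of 51.7 per Mb in the widest is close to the 50.3 per Mb of the next class.

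Members differed in Runx3 by their place. The 115 outside protein-coding genes held 82.2 midpoints per Mb (interval 66.1 to 101), and 66 of them (57.4%, interval 48.3 to 66.0%) overlapped Runx3. The 652 that overlap genes held 47.0 per Mb (interval 42.1 to 52.3), and 285 (43.7%, interval 39.9 to 47.5%) overlapped it. The intervals of the rates do not meet. The other H3K4me1-marked regions also held more Runx3 per length outside genes, where 47.4% of their midpoints lay on 35.4% of their bases. In members, 27.0% of midpoints lay outside genes, on 17.5% of bases. The 88 members more than 50 kb from a protein-coding TSS held 74.5 per Mb (interval 57.2 to 95.3), and the 112 that begin 500 to 1500 bp downstream of a TSS 38.3 per Mb (interval 28.5 to 50.3). Members with a protein-coding TSS inside (53.9 per Mb) and without (51.3 per Mb) were alike within their intervals, 41.3 to 69.3 and 46.2 to 56.9.

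The members with the most Runx3 were a mixed group. After Ppp3cc, the Ifnar1 side and Fli1, 3 Runx3-bound regions each lay in a member of 19538 bp in Eps15l1, 28066 bp downstream of Klf2, the factor that drives S1pr1 (chr8:74870998-74890535), and in members in Sorl1, a sorting receptor gene (14686 bp), and Ccr9 (11114 bp). Further ones lay near Snx9 (14383 bp, 31493 bp upstream), near Pgpep1l (11914 bp), in Dtx4 (8388 bp) and 102740 bp downstream of Btg1 (8018 bp). A member of 7824 bp in Kif21b also held 3 and ranked after these by width. The 5 widest without any were those in Myh9, Ets1 (the member of 26319 bp), Bcl11a, Eif2c2 and Vps37b. Large width was therefore found with and without Runx3, even within a single gene such as Ets1.

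Within members, Runx3 lay away from the edges. In successive bands of 10% of the width from the nearer edge to the middle, 32, 69, 105, 113 and 103 midpoints were counted. Only 13 (3.08%, interval 1.81 to 5.20%) lay within 500 bp of an edge, where 9.40% of the members' length lies, and the median distance from the edge was 3118 bp (interval 2954 to 3335 bp). Of the 422 Runx3-bound regions, 410 lay wholly inside. Where several shared a member, neighbouring midpoints were a median of 3232 bp apart (82 pairs, range 845 to 23723 bp).

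The Runx3-bound regions in members were slightly wider than those in other H3K4me1-marked regions, with medians of 916 bp (interval 899 to 932 bp) and 875 bp (interval 865 to 884 bp). They lay within 1 kb of a protein-coding TSS in 2.61% (interval 1.46 to 4.61%), against 12.3% in the other regions, and in introns in 70.1% (interval 65.6 to 74.3%) against 47.4%. Introns made up 78.9% of the members' bases and 58.0% of those of the other regions, so both intron shares lay below the share of bases. Members also held fewer TSSs per Mb than each narrower class. A RUNX match anywhere in the bound region was found in 414 of 422 (98.1%, interval 96.3 to 99.04%), against 95.5% in other marked regions and 75.01% of the 1673 with a midpoint outside the mark. In the central 200 bp, the 74.9% in members and 77.1% (interval 75.5 to 78.6%) in other marked regions had overlapping intervals. Matches are letters in the sequence and do not show binding.

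GC content was 46.4% in the members and in the other H3K4me1-marked regions, and 41.8% in the genome. CpG dinucleotides numbered 11.1 per kb in members, 14.7 per kb in the others and 8.34 per kb in the genome, and went up in steps from the members over 11.6 and 12.4 per kb in the next classes in width to 16.7 per kb in regions of up to 1646 bp. RUNX matches numbered 1.96 per kb in members and 1.94 per kb in the others, against 1.48 per kb in the genome. The median over single regions was 1.89 per kb (interval 1.84 to 1.95) in members and 1.75 per kb (interval 1.745 to 1.767) in the others. Single members ranged from 4 to 117 matches with a median of 19, and from 35.1 to 58.5% in GC.

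Many members were parts of still larger marked stretches. A further H3K4me1-marked region lay within 1000 bp of 644 (84.0%, interval 81.2 to 86.4%), against 60.2% of the other regions, and on both sides of 35.7% against 13.9%. The median gap to the nearest region was 186 bp (interval 161 to 211 bp) against 618 bp. Pairs of members within 1000 bp of each other numbered 45. When all regions up to 1000 bp apart were joined, 684 stretches held all the members. The longest ran for 93911 bp over Ikzf1 (16 regions, 4 members, 3 Runx3-bound regions), 93876 bp over Mbnl1 (20 regions, 4 members, 1) and 81321 bp over Foxo1 (14 regions, 4 members, 2). Of the members, 498 lay in the longest stretches of the same number. The widest single region, in Cyth1, was joined to only 1 neighbour and ranked 10th among the stretches, at 55566 bp.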

How the data were processed

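Resting CD8-TC were profiled by ChIP-seq with Runx3, H3K4me1 and NIS antibodies or serum. Per the labels and the methods of the study, the authors aligned reads of 40 to 42 bp to mm9 with ELAND (CASAVA 1.6 and 1.7), kept uniquely aligned reads, joined repeats, scaled the larger data set to the smaller and called peaks with MACS against NIS. The deposited lists hold region positions only, so height, depth and replicate spread are not known, and a stretch that cannot be aligned uniquely may split a region. Positions, moved to a start of 1, were used with the NCBIM37 genome (mm9) and GENCODE M1. Members and the 22 gene lists were chosen with earlier results of these data known. Named were the 20 widest members, the 10 with the most Runx3, 5 on each side of the threshold, the 5 widest outside genes or without Runx3, and overlapped genes of T cell lists, some of which are not reported here; genes of several members, the members nearest to listed genes and those of chromosome X were named after their values were seen. Overlap meant at least 1 bp; rates used Runx3 midpoints per Mb. No significance test was run. Intervals are Wilson, order-statistic, exact Poisson and exact conditional (Clopper-Pearson). Functions were tested on simulated regions. Python 3.11.15, numpy 2.4.6, pandas 2.3.3, scipy 1.17.1 and matplotlib 3.10.9 were used. Alternatives changed the number of members, chromosomes, joining of neighbours, and what counts as overlap, start site or gene.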

Additional observations from a re-analysis of the deposited data

How the results depend on the processing

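Of 53 alternatives over 11 results, 27 stayed within the interval of the reported value (or, for counts, within 1.5 times) and 26 moved; the cause of a move was not tested. The reported share of a region downstream of its TSS, 55.5%, fell below 50% with the widest 0.5% of regions (49.8%) and with the TSS farthest downstream (46.2%), as well as with 1 TSS per gene (below). With the widest 0.5% and 2% of regions, the median width was 11512 and 7339 bp, the share with Runx3 51.3 and 38.8%, the share overlapping a gene 89.1 and 80.6%, and the genes overlapped 311 and 944, and the share with a TSS was 29.4% for the widest 0.5%. With neighbours within 1000 bp joined first, the values were 17224 bp, 51.0% with Runx3, a rate ratio of 1.27, 52.5% with a TSS, 79.6% of the region downstream of it, 89.0% overlapping a gene and 95.6% of Runx3-bound regions with a RUNX match. Counting any overlap with Runx3 gave a rate ratio of 1.36, and, chosen after the data were seen, a ratio of members to the narrowest class of 2.06 instead of 4.53. With protein-coding transcripts a TSS lay inside 13.3% of members, and with 1 TSS per gene inside 10.4%, with 37.7% of the region downstream. Requiring 50% of the gene covered left 12.5% of members and 70 genes, and a protein-coding TSS inside 13.3% and 103 genes. A RUNX match lay in the central 200 bp of 74.9%. Leaving out the read-through gene Gm20388, chosen after the data were seen, gave 85.0% and 538 genes. No paired analysis was possible because the authors pooled the repeats before calling regions; for the same reason no replicate could be left out, and a stricter score was not run because the lists hold none.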
